A study of Mus musculus with 80 samples.

Results

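The genes described here are 47 components of the machinery that carries newly made proteins into the endoplasmic reticulum (ER) and between the ER and the Golgi apparatus. They were chosen by name, as known parts of this machinery, and all 47 were among the 23337 genes of the expression table. They fall into 9 roles: 5 genes of the signal recognition particle (SRP), 2 of its receptor, 6 of the translocon, 4 of the translocon-associated protein (TRAP) complex, 5 of signal peptidase, 6 of oligosaccharyltransferase, 8 of the COPII coat, 3 of the COPI coat and 8 cargo receptors.

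RNA was sequenced from 80 libraries of mouse AgRP neurons of the arcuate nucleus, in 20 groups. Zeitgeber time (ZT) counts hours after lights on. Cells of NPY::hrGFP mice, in which a GFP reporter marks neurons that use the Npy gene, were sorted by their fluorescence after free feeding (6 libraries at ZT2 and 3 at ZT14), after an effective 24 h fast (7 and 8) or after that fast and 1 h of refeeding (5 and 4). Ribosome-bound RNA was pulled down from AGRP-Cre;RiboTag mice, in which Cre switches on a tagged ribosomal protein in cells that have used Agrp, after free feeding (3 libraries at ZT2 and 4 at ZT14) or the fast (5 and 5). Floxed controls (WT;BMAL1fx) and knockouts (AGRP-Cre;BMAL1fx) carried the same BMAL1fx alleles and differed in Cre, which deletes the clock gene Arntl (encoding BMAL1) in AgRP neurons. These mice received PBS or leptin at ZT2 or ZT14 (4 PBS-injected controls at ZT2 and 3 libraries in each other group), and a further 2 control and 3 knockout libraries were taken at ZT5 with no treatment or feeding state stated. How cells of the leptin and ZT5 groups were collected, the leptin dose, and the age and sex of the mice are not given in the sources used here.

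A protein bound for secretion is recognised by SRP as its signal peptide leaves the ribosome, and the SRP receptor hands the ribosome to the Sec61 channel in the ER membrane. Signal peptidase then removes the signal peptide, oligosaccharyltransferase adds N-linked sugars, COPII vesicles carry the cargo toward the Golgi, and COPI vesicles return escaped ER proteins. AgRP neurons release the peptides AgRP and NPY through this route, and fasting is a classical stimulus for the synthesis of both. In many secretory cells the transcription factors XBP1 and ATF6, which respond to unfolded protein in the ER, raise genes of this machinery through short promoter motifs.

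Sequences upstream of 36 of the 47 genes were found in RefSeq (assembly GRCm38.p6, the build also called mm10), as windows of 300 bases, 250 before and 50 after each transcription start. The letters TGACGTGG, the motif known as the UPR element, stood on either strand in 4 of the 36 genes (Sec23a, Sec24d, Copb1 and Kdelr3) and in 0.714% of 27025 genes with windows of the same length. Its core GACGTG, which lies within TGACGTGG, stood in 11 of the 36 and in 7.15% of all genes. The E-box CACGTG, the letters bound by BMAL1 with its partner CLOCK, stood in 4 of the 36 (Sec62, Ssr1, Sar1a and Tmed10) and in 8.09% of all genes. The letters TGACGTCA (CRE) were in none of the 36 windows and in 2.03% of all genes. The ER stress response elements ERSE and ERSE-II, searched on both strands, were likewise in 0 of the 36, and in 0.137% and 0.0444% of all genes. The stretches below hold matches of genes whose values are described further on, each read 5′ to 3′ on the strand of its gene, with the match in capitals. The stretches of Sec24d (chr3:123267376-123267484, plus strand) and Copb1 (chr7:114254682-114254800, minus strand) carry the UPR element, and those of Sec63 (chr10:42761376-42761495, plus strand) and Srpr (chr9:35211179-35211208, plus strand) its core.
Sec24d: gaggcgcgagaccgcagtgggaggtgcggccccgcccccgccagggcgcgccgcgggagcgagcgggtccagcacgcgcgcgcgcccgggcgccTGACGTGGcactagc
Copb1: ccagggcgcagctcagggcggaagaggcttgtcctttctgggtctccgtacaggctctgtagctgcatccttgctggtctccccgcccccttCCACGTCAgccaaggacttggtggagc
Sec63: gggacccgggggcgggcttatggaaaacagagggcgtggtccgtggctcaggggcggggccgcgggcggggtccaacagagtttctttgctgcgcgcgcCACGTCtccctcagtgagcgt
Srpr: ggctgctggtgtGACGTGtcccgcgcttgg
The printed stretch of Ssr1 (chr13:37994209-37994328, minus strand) holds both the E-box and the core, and those of Sar1a (chr10:61680266-61680295, plus strand), Sec62 (chr3:30792832-30792861, plus strand) and Tmed10 (chr12:85374711-85374740, minus strand) the E-box. Sar1a also has a match to the core 156 bases before its RefSeq start, outside the stretch printed.
Ssr1: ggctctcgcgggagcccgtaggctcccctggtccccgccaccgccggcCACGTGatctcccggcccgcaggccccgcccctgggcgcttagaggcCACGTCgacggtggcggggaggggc
Sar1a: gagggggcggggCACGTGcgtgcccggaag
Sec62: gttgtgaggtgtCACGTGaggagcggacat
Tmed10: gcagaggcgcgtCACGTGggtgctcccggt
In the printed stretches the matches began before the RefSeq start by 26 bases in Sec24d, 28 in Copb1, 21 in Sec63, 12 in Srpr, 7 in Sar1a, 32 in Sec62 and 11 in Tmed10. In Ssr1 the E-box began 72 bases and the core 25 bases before that start. The gene models of GENCODE M21, from which the gene positions below are taken, begin elsewhere for several of these genes. The whole 30-base stretches of Srpr, Sec62 and Tmed10 and the last 30 bases of those of Sec24d and Copb1, with the letters in capitals, lie in exons of that annotation, counted over any gene on either strand. No binding was measured at these letters.

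The libraries held 5.93 to 34 M reads (median 14.3 M). Before any comparison, the 25 fasted libraries and the 5 ZT5 libraries stood apart from the other 50: the transcription factor Cebpb was at 42.54 to 1565 normalised counts in the 30 and 0 to 17.06 in the 50, and the RNA export factor Alyref was at 545.4 to 2756 against 12.32 to 81.78. The ribosomal precursor Rn45s was lower in 29 of the 30 than in all of the 50. This division was present in sorted cells and in RiboTag RNA and included the ZT5 libraries, for which no fast is stated. In every contrast of fasted with fed or refed libraries, fasting and whatever else set these libraries apart cannot be told apart. Contrasts of refed or PBS-injected with fed libraries lie within the 50. In bulk RNA, fewer cells of a type and less RNA per cell also cannot be told apart. The labels do not say whether libraries of a group came from separate mice, so p-values measure the spread between libraries, which may be technical.

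Each of the 47 genes was above 0 in some fed sorted library at ZT2, over a wide range. Per kilobase of the longest annotated transcript, in the 6 fed libraries at ZT2, Srp14, the Alu-domain subunit of SRP, had the highest mean, 16404 ± 4229 normalised counts per kb (SD, n = 6). The signal peptidase subunits Spcs1 (5728 ± 1923) and Spcs2 (2749 ± 402) followed. Ssr2 (2529 ± 636), Sec61b (2526 ± 706) and Dad1 (2507 ± 708) came next and lay within their SDs of each other and of Spcs2. Subunits of 1 complex lay far apart: beside Sec61b, the other channel subunits Sec61a1, which forms the pore, and Sec61g were at 131.6 and 79.53 per kb. Tmed2 was at 129.1 and Tmed9 at 102.1. The J-domain translocon protein Sec63 (69.35 ± 20.4), the cargo-binding coat subunits Sec24a (38.28 ± 18.5) and Sec24d (38.25 ± 10.6) and the KDEL receptor Kdelr3 (4.055 ± 5.97) closed the order, and Sec24a and Sec24d did not differ beyond their SDs. The order depends on the transcript length used: with the mean length of a gene's transcripts the ranks 1 to 3 were the same, but Sar1a, the GTPase that starts COPII assembly, moved from rank 12 to 4.

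**Figure D1:**
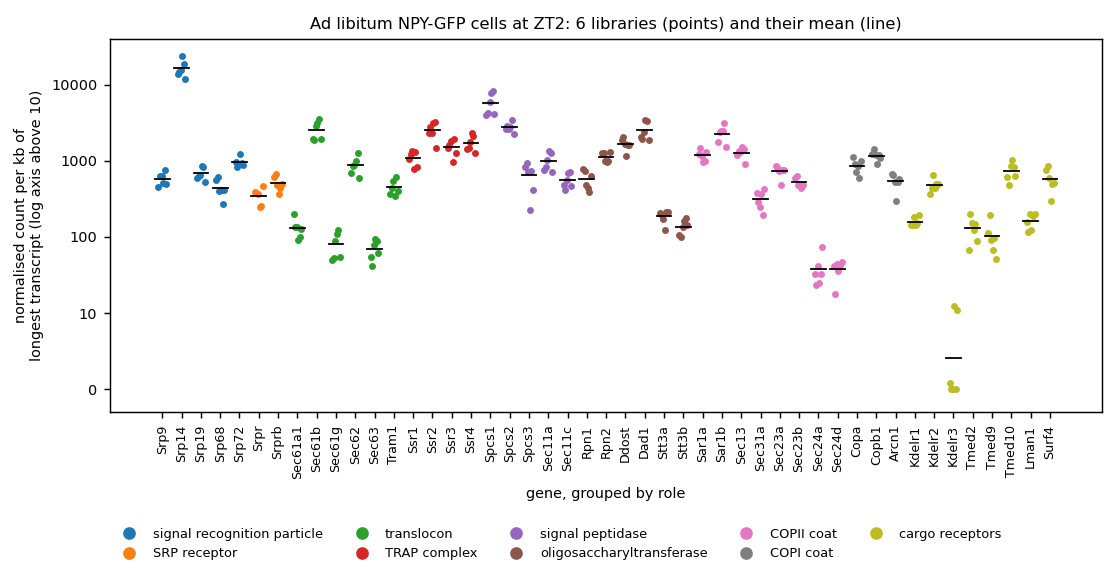
Level of each gene in freely fed sorted cells at ZT2, as normalised counts per kb of the longest transcript (logarithmic axis above 10), with the 6 libraries as points and their mean as a line; genes are grouped and coloured by the 9 roles. Srp14 stands above all others at a mean of 16404 and Kdelr3 lies at 4.055, near 0.

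Fasting was compared with free feeding in sorted cells at ZT2 on log2 values after adding 1 normalised count, so that changes of low genes are understated. A gene was called where limma's adjusted p was under 0.05 over the 14931 genes tested. Of the 47 genes 21 rose and 4 fell, where 18.3% of all genes were called higher and 19.2% lower. The median log2 difference was 0.53 over the 47 and -0.02 over all genes tested. The share that rose was above that of all genes, and the share that fell below it.

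Cargo receptors held the gene with the smallest p. Tmed2 (chr5:124540695-124550506), a member of the p24 family that packs cargo into COPI and COPII vesicles, ranged from 138.1 to 410.2 normalised counts in the fed libraries (median 279.5) and from 1299 to 2399 in the fasted ones (median 1711). The 2 groups did not overlap, and the log2 difference was 2.76 ± 0.343 (SE; adjusted p = 1.21e-07). Tmed9, of the same family, went from 112.4 to 427.1 in fed libraries (median 207.8) to 379.2 to 2377 in fasted ones (median 947.8), a difference of 2.28 ± 0.346 (adjusted p = 3.45e-06). All but 1 of its fasted libraries exceeded every fed library. Surf4, a receptor for soluble cargo leaving the ER, rose by 1.27 ± 0.217 with no overlap, from 983 to 2786 (median 1791) to 3363 to 6373 (median 4087). The lectin Lman1, which ferries glycoproteins, rose by 0.82. Kdelr2, which returns proteins ending in KDEL from the Golgi (chr5:143403838-143421901), fell in the same cells. Its fed libraries held 668.3 to 1189 (median 852.3) and its fasted libraries 353.1 to 560.8 (median 477.1), again without overlap, a difference of -0.90 ± 0.186 (adjusted p = 0.000236). Kdelr1 had a difference of 0.33 (adjusted p = 0.3) and Tmed10 one of -0.06 (adjusted p = 0.843).

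Oligosaccharyltransferase had 5 of its 6 subunits called higher, with a median log2 difference of 0.98. Rpn1, a scaffold subunit of that enzyme (chr6:88084482-88105304), was at 1426 to 2841 in fed libraries (median 2025) and at 3943 to 13985 in fasted ones (median 6268). Its difference was 1.84 ± 0.305 (adjusted p = 1.33e-05) and its groups did not overlap. Rpn2 rose by 1.08 and Ddost by 1.12, each with all 7 fasted libraries above all fed ones. Both catalytic subunits passed more narrowly, Stt3b at 0.88 (adjusted p = 0.0251) and Stt3a at 0.53 (adjusted p = 0.0403). Dad1 did not pass, at -0.11. Ddost lost its call after a correction for GC content and transcript length, Stt3a in 12 and Stt3b in 4 of 23 alternative settings.

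Among targeting components, the SRP receptor subunit Srpr rose by 1.47 ± 0.229, from 742.3 to 1392 (median 1102) to 1923 to 5208 (median 2498), without overlap, while its partner Srprb had a difference of 0.33 (adjusted p = 0.141). Within SRP itself the subunits split. Srp9 rose by 0.93 and Srp68 by 0.61, Srp72 fell by 0.47, and Srp14 and Srp19 did not pass. Srp72 was at 3013 to 4482 in fed libraries (median 3343) and at 2054 to 2937 in fasted ones (median 2425), so that every fasted library lay below every fed one.

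In the translocon, Tram1, which helps some signal peptides into the channel, rose by 0.98 and Sec63 by 0.91 (adjusted p = 0.00552). Sec63 (chr10:42761496-42832514) overlapped between groups, with 247.8 to 567.6 in fed libraries (median 420.1) and 427.4 to 1366 in fasted ones (median 704.7). The channel subunits Sec61a1 (0.66, adjusted p = 0.0769), Sec61b (0.57) and Sec61g (0.30) did not pass. The TRAP complex, which assists translocation, moved in opposite directions: Ssr2 rose by 1.10 and Ssr1 fell by 1.10 (adjusted p = 0.000339). Ssr1 (chr13:37966605-37994217) was at 7270 to 12471 in fed libraries (median 10665) and at 3245 to 8107 in fasted ones (median 4606). Its longest transcript, 9333 bases, was the longest of the 47 genes, and its difference became 0.09 after the correction for GC content and transcript length. Of signal peptidase, Spcs2 rose by 0.69.

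Among the 8 COPII genes, Sec24d (1.59), Sec13 (1.21), Sec23b (0.70) and Sar1a (0.68) rose and Sec24a fell by 1.36 (adjusted p = 0.0145). The 2 cargo-binding Sec24 forms therefore moved in opposite directions. Sec24d (chr3:123267455-123365641) went from 70.19 to 184.8 (median 163.4) to 181.9 to 1205 (median 396.7), with 1 fasted library inside the fed range. Sec24a went from 155.6 to 485.1 (median 215.9) to 37.82 to 150.6 (median 85.56), without overlap, and lost its call after the correction for GC content and transcript length and without fed replicate 6. Of the COPI coat only the delta subunit Arcn1 rose, by 1.05, and Copa and Copb1 had differences of -0.02 and 0.09. Across the 23 alternative settings 18 of the 25 calls were kept in all.

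Markers of other cells moved with this contrast. Of 10 tested markers of other hypothalamic neurons 8 were higher in fasted sorted cells, with summed levels of 13102 to 66255 against 3873 to 9628 in fed ones. Of 9 astrocyte markers 3 were higher (sums of 2951 to 37617 against 3296 to 6024). No marker of oligodendrocytes, their precursors or microglia passed. Of 6 tanycyte and ependymal markers 1 was higher, and their sums did not overlap (898.6 to 6240 when fasted, 177.4 to 599.6 when fed). Of 4 POMC neuron markers 2 were higher and 1 lower, with a median sum of 3837 against 1471. Of 10 AgRP neuron markers 4, among them Agrp and Npy, were higher and 3 lower. Their part in the differences above was not tested.

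At ZT14 10 of the 47 genes rose and 2 fell with fasting, against 9.66% and 8.81% of all genes, and their median difference was 0.23. Tmed2 was at 311.2, 98.64 and 412.7 in the 3 fed libraries and at 985.7 to 2048 in the 8 fasted ones (median 1461). All fasted libraries exceeded all fed ones, by 2.65 ± 0.418 (adjusted p = 2.38e-05). Sec63 was at 298.4, 282.8 and 325.5 when fed and at 586.2 to 988.4 when fasted (median 795.3), a rise of 1.35 ± 0.315 (adjusted p = 0.00263). Kdelr2 was at 913.1, 947 and 887.8 when fed and at 385.9 to 800.6 when fasted (median 438.6), a difference of -0.96 ± 0.226 (adjusted p = 0.00283). For these 3 genes the groups did not overlap, and only their calls were kept in all 20 alternative settings. Tmed9 (1.56), Sec24d (1.55), Stt3b (1.47), Rpn1 (1.17), Srpr (0.96), Tram1 (0.89), Sec13 (0.82) and Ddost (0.62) were also called higher and Srp72 lower (-0.47). Without fed replicate 2 the number called higher was 3. At this time 4 of 9 astrocyte markers and 4 of 10 tested markers of other hypothalamic neurons were higher too. Summed tanycyte and ependymal markers were at 629.7 to 9204 when fasted and 464.3 to 617.3 when fed, without overlap. Sums of AgRP, POMC and other hypothalamic neuron markers overlapped, and the part of these cells was not tested. No gene of the set passed the test of whether its fasting difference differed between ZT2 and ZT14 (adjusted p = 0.999 for each, limma). None was called with edgeR, and the share over all genes was 0% in each direction. At an unadjusted p under 0.05 there were 2 of the 47, against 4.33% of all genes.

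**Figure D2:**
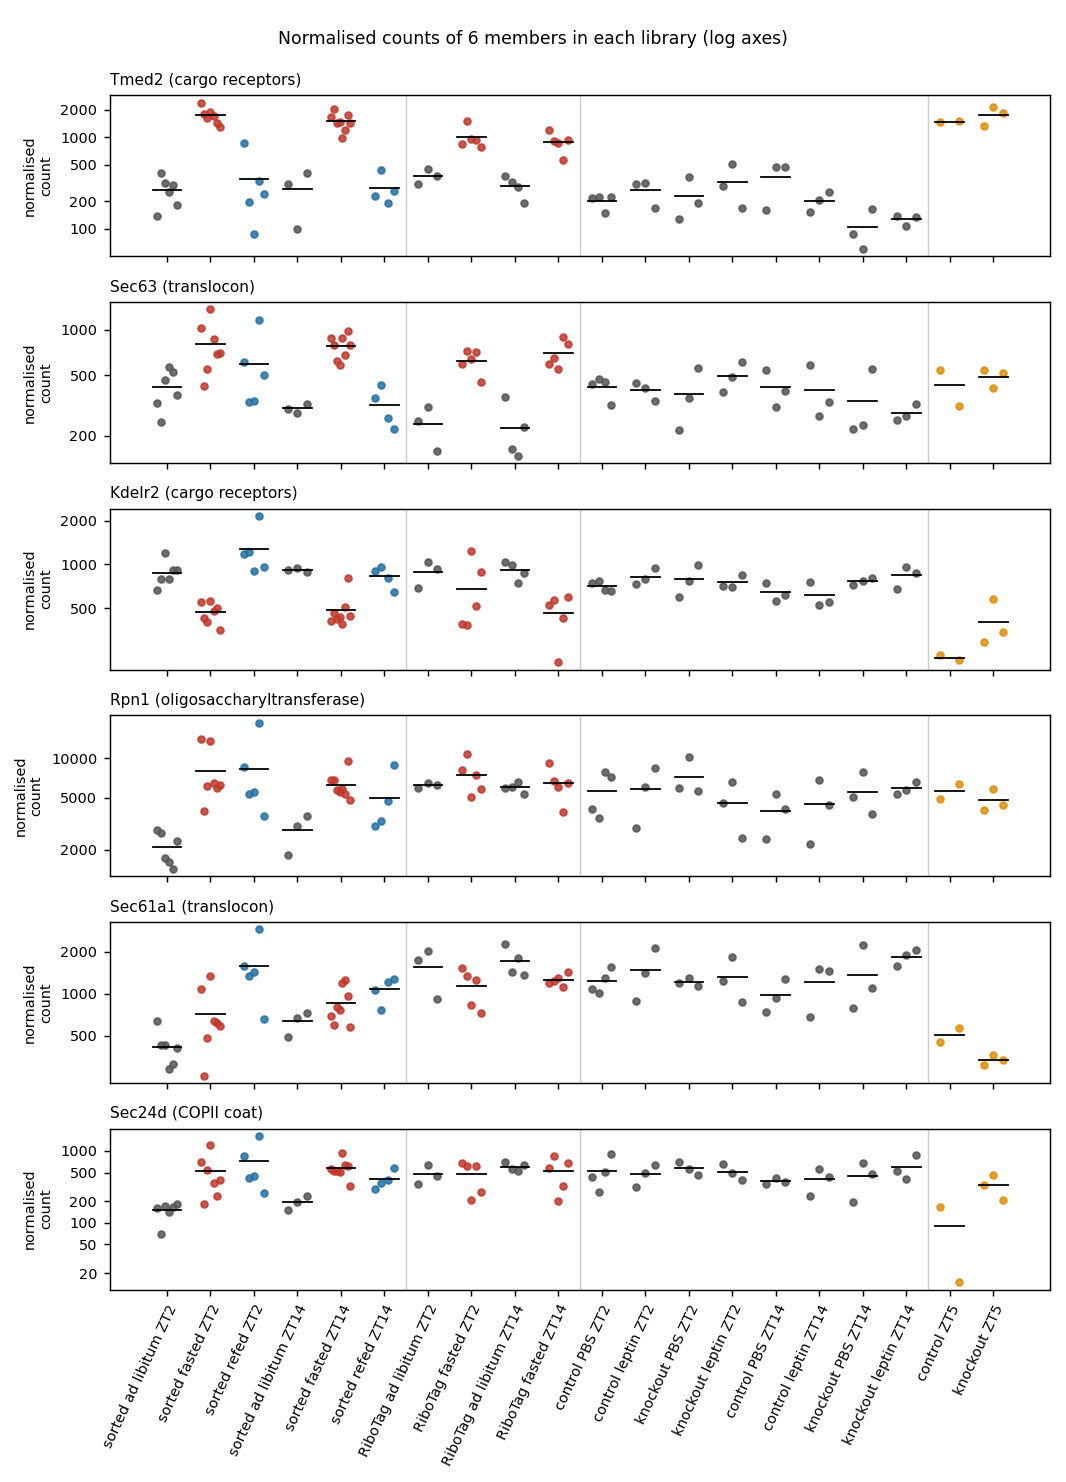
Normalised counts of Tmed2, Sec63, Kdelr2, Rpn1, Sec61a1 and Sec24d in every library (points, logarithmic axes) by group, with lines at group means; grey marks fed, PBS and leptin libraries, red fasted, blue refed and orange ZT5. Tmed2 is high in the fasted and ZT5 groups (562.1 to 2399) and low in the others (60.11 to 879.7). Kdelr2 has the opposite order by medians (438.6 and 799.6), with overlap, and a fasted RiboTag library at ZT2 reaches 1234. Rpn1 and Sec24d are also high in refed libraries at ZT2.

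Refeeding for 1 h was compared with the continued fast. At ZT2 11 genes were higher and 2 lower in refed than in fasted sorted cells, against 10.8% and 11.1% of all genes tested. Tmed2 was at 879.7, 195.3, 87.73, 335.5 and 242.8 in the 5 refed libraries, all below the lowest fasted library, a difference of -2.71 ± 0.361 (adjusted p = 8.96e-07). Tmed9, the other gene called lower, had a difference of -1.03 (adjusted p = 0.0383) and lost this call in 11 of 21 settings. Kdelr2, at 1184, 1213, 901, 2149 and 951 when refed, was above all fasted libraries by 1.39 ± 0.195 (adjusted p = 2.08e-06). Ssr1, at 17400, 10829, 16912, 35297 and 8387, was higher by 1.75 ± 0.246 (adjusted p = 2.02e-06). Srp72 (0.81), Ssr3 (0.81), Sec24a (1.85) and Sec61a1 (1.16) were also higher in all 21 settings. Copb1, Stt3a, Tmed10, Srp19 and Spcs3 were called higher with differences of 0.57 to 0.71 and lost the call in 2 to 13 settings. Without refed replicate 4, 6 genes were called higher. In this contrast 4 of 9 astrocyte markers, 2 of 10 tested markers of other hypothalamic neurons and 1 of 6 tanycyte and ependymal markers were lower in refed cells, and their part was not tested.

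Genes that rose with fasting were mostly not lower after refeeding. Rpn1 had a refed minus fasted difference of -0.06, Ddost one of 0.02, Arcn1 0.02, Sec13 0.26 and Surf4 0.33, and none of these passed. Both contrasts share the fasted libraries, so the values are given side by side only. At ZT14 4 genes were higher and 3 lower in refed than in fasted cells, against 6.36% and 5.3% of all genes. Tmed2 was at 231.1, 436, 192.8 and 259.5, below all fasted libraries, with a difference of -2.46 ± 0.378 (adjusted p = 1.49e-05). Sec63, at 352.7, 432.9, 259.9 and 220, was also below all fasted libraries, with a difference of -1.33 ± 0.285 (adjusted p = 0.00129). Kdelr2, at 904.6, 963.8, 801.2 and 648.7, was higher by 0.80 (adjusted p = 0.00701), with 3 of its 4 refed libraries above all fasted ones. Tmed9 (-1.45) was called lower, and Ssr1 (1.05), Sec24a (1.79) and Srp72 (0.57) higher. Tmed2, Sec63 and Kdelr2 kept their calls in all 21 settings, and Ssr1 lost it after the correction for GC content and transcript length.

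Refed cells were then compared with freely fed ones, a contrast within the 50 libraries with low Cebpb. At ZT2 26 of the 47 genes were higher and none lower in refed cells, against 9.01% and 8.72% of all genes tested. Of the 47, 44 had a difference above 0, with a median of 0.74 against -0.14 over all genes. Every role had at least 1 gene called higher.

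The channel subunit Sec61a1 (chr6:88503579-88518905) was at 291.6 to 635.9 in fed libraries (median 416.8) and at 1591, 1351, 1429, 2907 and 662.9 when refed, with no overlap and a difference of 1.82 ± 0.320 (adjusted p = 0.000205). Surf4 was at 6009, 4481, 3934, 10515 and 4400 when refed, above all fed libraries by 1.60 ± 0.236 (adjusted p = 1.72e-05). Rpn1, at 8495, 5319, 5463, 18621 and 3605, was higher by 1.78 ± 0.332 (adjusted p = 0.000391). For each of these genes refed replicate 4 was the highest library, and it was the highest of its group for 35 of the 47 genes. Sec24d, at 854, 415.5, 441.8, 1614 and 260.7, was higher by 2.02 ± 0.390 (adjusted p = 0.000558), also without overlap. The outer COPII subunit Sec13, at 6353, 4053, 3734, 9092 and 6443, was higher by 1.48 ± 0.251 (adjusted p = 0.000128), and Ddost by 1.14 ± 0.193 (adjusted p = 0.000129).

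By role, oligosaccharyltransferase had the largest median difference (1.16), with Rpn1, Rpn2, Ddost, Stt3a and Stt3b called and Dad1 not. The translocon followed at 0.85, with Sec61a1, Sec61b (1.01) and Tram1 (0.96) called. Of the SRP receptor Srpr was called (1.25). Of SRP, Srp9, Srp19 and Srp68 were called with differences of 0.71 to 0.82, and of the TRAP complex Ssr2, Ssr3 and Ssr4 with 0.70 to 0.89. Spcs3 and Sec11a of signal peptidase were each at 0.91. COPII had Sec24d, Sec13, Sec23b (1.16) and Sar1a (0.92) called, and COPI had Arcn1 (1.07) and Copb1 (0.65). Among cargo receptors Surf4, Tmed9 (1.25) and Lman1 (0.80) were called. Tmed2 (0.06, adjusted p = 0.935) and Kdelr2 (0.49, adjusted p = 0.0874) did not pass, and the values of Tmed2 in refed cells overlapped those in fed cells. Of the 11 genes with the core letters GACGTG, Sec24d, Sec13, Copb1, Srpr and Sar1a were among the 26 called. Srp14, Sec63, Ssr1, Dad1, Sec23a and Kdelr3 were not, and the share called among the 11 was no higher than among the 47.

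Without refed replicate 4, 13 of the 26 calls remained and the median difference was 0.60. These were Sec61a1, Srpr, Rpn1, Rpn2, Ddost, Stt3a, Sar1a, Sec13, Sec23b, Sec24d, Copb1, Arcn1 and Surf4, which were also the genes called in all 21 settings. Of AgRP neuron markers Ghsr, Lepr, Npy and Agrp were higher in refed cells, with summed levels of 552680 to 2164302 against 196992 to 471085 when fed. Of the markers of other hypothalamic neurons 5 were higher (sums of 12256 to 30100 against 3873 to 9628), and of the astrocyte markers 2, although their summed level was 1814 to 3229 when refed and 3296 to 6024 when fed. Of 4 POMC neuron markers 1 was higher (sums of 2454 to 4965 against 1086 to 2232) and of 6 tanycyte and ependymal markers 1 (sums of 634.4 to 1239 against 177.4 to 599.6), with no overlap of either sum. Their part in the result was not tested.

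At ZT14 the refed minus fed contrast called none of the 47 genes with limma or edgeR, and 0.362% of all genes were called higher and 0.0134% lower. The smallest adjusted p was 0.153, for Stt3b, the catalytic subunit that can act after translocation, with fed values of 790.9, 498.5 and 617.1 and refed values of 1529, 2235, 1638 and 1775. Its groups did not overlap and its difference was 1.51 ± 0.431. Of the 47 genes 38 had a difference above 0, with a median of 0.30, and 3 had an unadjusted p under 0.05, against 6.43% of all genes. The difference between the 2 times was tested itself. None of the 47 passed (smallest adjusted p = 0.964, Surf4, limma), and 0% of all genes were called in either direction. At an unadjusted p under 0.05 there were 9 of the 47, against 4.58% of all genes. The median of this difference was -0.55 over the 47 and 0.10 over all genes. Without refed replicate 4 at ZT2 it was -0.33 over the 47. Summed AgRP neuron markers at ZT14 were at 454161 to 682232 when refed and 197915 to 441115 when fed. Those of tanycytes and ependyma were at 808.1 to 1164 and 464.3 to 617.3, and those of astrocytes at 2241 to 3197 and 5428 to 5457. None of these sums overlapped between groups, while those of POMC and other hypothalamic neurons did, and their part was not tested.

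**Figure D3:**
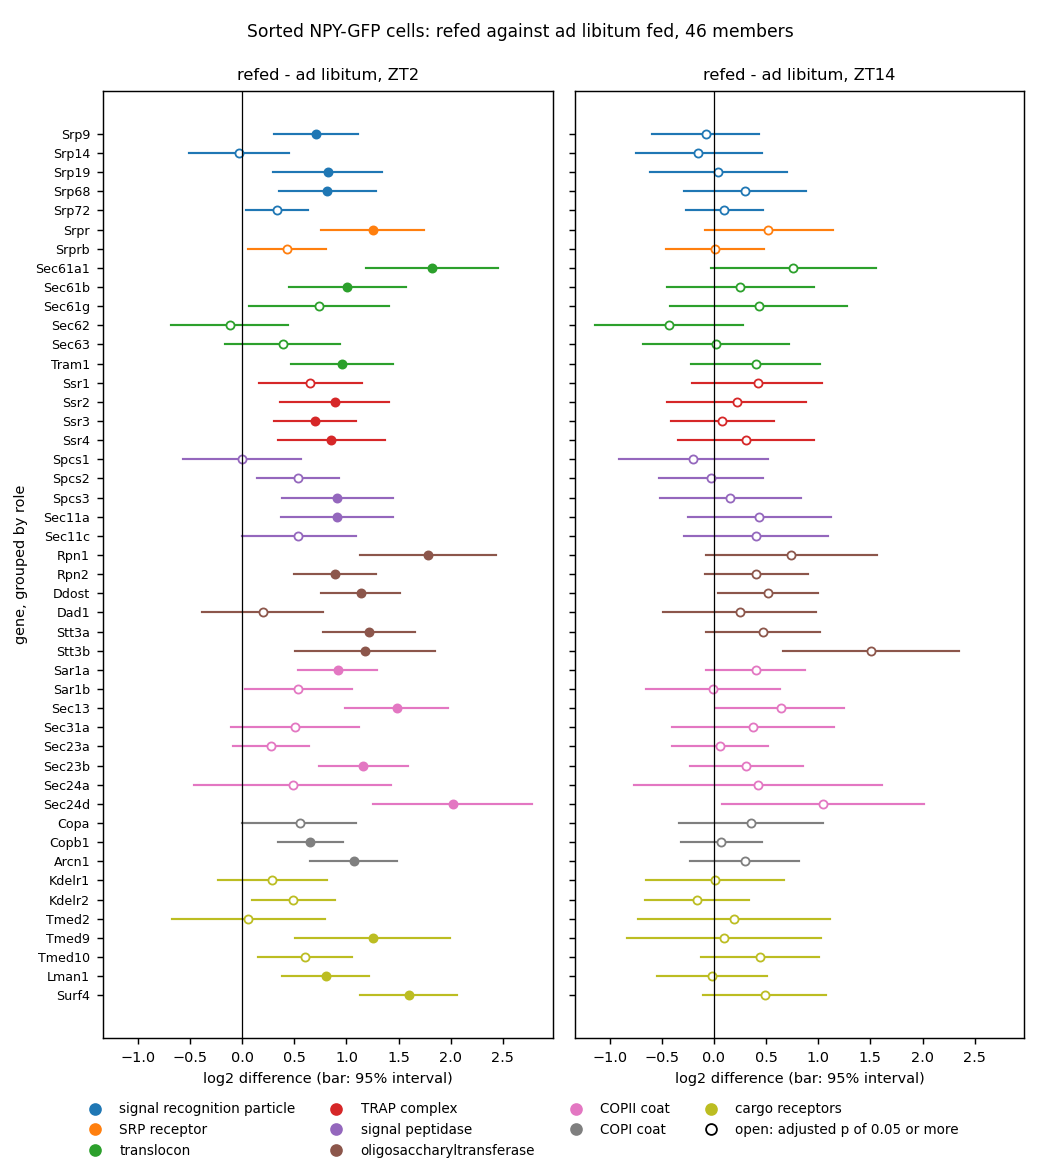
Log2 difference between refed and freely fed sorted cells at ZT2 (5 against 6 libraries) and ZT14 (4 against 3) for 46 genes (Kdelr3, near 0, is left out). Bars show an approximate 95% interval by the normal distribution, narrower than limma's t distribution would give. Filled points had an adjusted p under 0.05. At ZT2 26 points are filled, all to the right of 0, and at ZT14 none is.

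Fed libraries at ZT2 are the reference of this result, so another group of mice with no stated fast was set beside it. PBS-injected floxed controls at ZT2 differed from the fed NPY::hrGFP libraries in genotype, injection and experiment, and both contrasts share the 6 fed libraries. Of the 47 genes 11 were higher and none lower in the PBS-injected controls, against 3.43% and 1.23% of all genes (16873 tested). Sec61a1 was at 1092, 1013, 1311 and 1554 in these controls, above all fed libraries by 1.60 ± 0.311 (adjusted p = 0.000542). Surf4, at 3694, 3289, 4420 and 4898, was above all fed libraries by 1.16 (adjusted p = 0.0011). Sec24d, at 440, 266.6, 501.1 and 898.3, was higher by 1.74 and Rpn1, at 4104, 3459, 7796 and 7211, by 1.39. For these 4 genes every PBS-injected library lay above every fed library, as every refed library did. Srpr, Stt3a, Sec13, Rpn2, Ddost, Sec23b and Spcs3 made up the rest, with differences of 0.80 to 1.14. The count was 2 (Surf4 and Sec61a1 remained) without PBS-injected control replicate 4, 7 with replicate number as a block and 6 without fed replicate 4 and ZT5 control replicate 1. Marker sums of other cells also stood apart without overlap at ZT2: those of other hypothalamic neurons were at 13824 to 40545 in PBS-injected controls and 3873 to 9628 in fed cells (5 of 12 called higher, with Tac2, Kiss1 and Ghrh at 0 in every PBS-injected library). Those of POMC neurons were at 3362 to 6137 and 1086 to 2232 (1 of 4 called) and those of tanycytes and ependyma at 1175 to 1654 and 177.4 to 599.6 (1 of 6). Their part in this contrast was not tested. At ZT14 no gene was called with limma (adjusted p = 1 for each) or edgeR, against 0.0889% and 0% of all genes. At an unadjusted p under 0.05 there was 1 of the 47, against 3.96% of all genes.

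**Figure D4:**
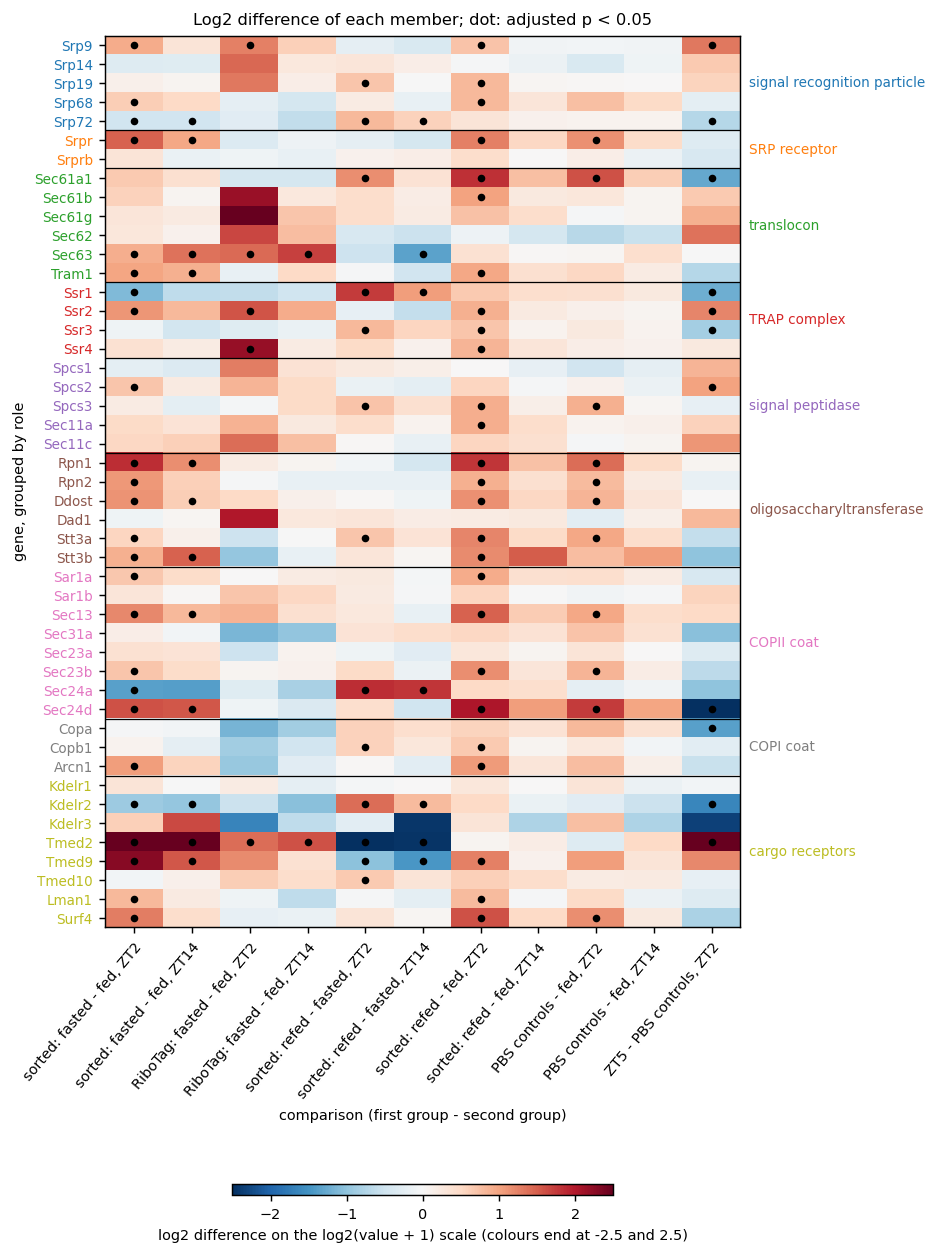
Log2 differences of the 47 genes (lines, grouped by role) in 11 comparisons (columns), blue below and red above 0, with colours ending at -2.5 and 2.5; a dot marks an adjusted p under 0.05. Tmed2 is red and dotted in the 4 fasting columns, and the refed minus fed column at ZT2 has 26 dots, all on red cells.

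RiboTag RNA gave a measure of fasting by another method. Its fasted libraries share the division by Cebpb, Alyref and Rn45s described above, and all its groups held glial markers. At ZT2 5 of the 47 genes rose and none fell, against 4.08% and 3.81% of the 15444 genes tested, and the median difference was 0.01 against -0.19 over all genes. Tmed2 was at 308.7, 456.1 and 377 in fed libraries and at 844.9, 1503, 964.1, 943.5 and 796.8 in fasted ones, a difference of 1.39 ± 0.305 (adjusted p = 0.0103). Sec63 went from 249.7, 310.6 and 158.3 to 592.9, 722.3, 644.7, 708.9 and 453.7 (1.41 ± 0.326, adjusted p = 0.0134). Both genes were separated between fed and fasted libraries without overlap. Ssr4, a TRAP subunit, went from 1410, 1528 and 1690 to 3142, 3529, 18542, 4405 and 17293 (2.17 ± 0.526, adjusted p = 0.0183). Ssr2 rose by 1.58 and Srp9 by 1.26.

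Fasted RiboTag replicates 3 and 5 at ZT2 were far above the other libraries for several small subunits. Sec61b was at 1328, 2080, 15943, 3149 and 14208, and Sec61g at 76.15, 134.6, 2477, 258.5 and 2059. Neither passed (adjusted p of 0.0568 and 0.096). The summed normalised counts of these 2 libraries were 42.51 and 22.19 M, against 13.46 to 15.13 M in the other fasted and fed RiboTag libraries at ZT2. Tmed2 lost its call only without fed replicate 1, and without it 1 gene in all was called. Arcn1, which rose in sorted cells, was at 3645, 3934 and 4134 when fed and 2837, 3763, 769.6, 3200 and 1301 when fasted, with a difference of -0.94 (adjusted p = 0.152). The difference of its fasting differences between methods was -1.99 ± 0.411 (adjusted p = 0.00462), the only such call kept in all 32 settings. Markers of other neurons moved with the RiboTag contrast at ZT2. Pomc and Cartpt among 4 POMC neuron markers, Nts, Sst and Gal among 12 markers of other hypothalamic neurons, and Agrp were called higher. Summed POMC neuron markers had a median of 1933 in fed and 19174 in fasted libraries, and those of other hypothalamic neurons were at 5566 to 23385 and 16717 to 187155. Summed AgRP neuron markers were at 37426 to 146469 when fed and 188982 to 4262459 when fasted, without overlap. No astrocyte marker passed (sums of 21425 to 159320 when fed and 16727 to 345837 when fasted). Summed oligodendrocyte markers were at 14391 to 175459 when fed and 10943 to 241463 when fasted. Their part in the RiboTag differences was not tested.

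At ZT14 Tmed2 and Sec63 were the 2 genes called higher in fasted RiboTag RNA and none was lower, against 4.15% and 1.14% of all genes. Tmed2 was at 380.6, 328.4, 286.7 and 189.7 when fed and at 1219, 905.6, 866.7, 562.1 and 943.3 when fasted (1.60 ± 0.280, adjusted p = 0.00124). Sec63 was at 359.8, 164.2, 147.3 and 228.4 when fed and at 594.3, 648.7, 554.9, 896.3 and 811.7 when fasted (1.70 ± 0.299, adjusted p = 0.00128). All 5 fasted libraries exceeded all fed ones for both, and both calls were kept in all 18 settings. Kdelr2 was at 1038, 987.6, 741.6 and 871.2 when fed and at 526, 570.2, 211.7, 424.6 and 597.6 when fasted, without overlap, but its difference of -1.04 did not pass (adjusted p = 0.118, limma). At ZT2 Kdelr2 was not called in RiboTag RNA, and 1 fasted library there held 1234. Marker sums of fed and fasted RiboTag libraries at ZT14 overlapped. Those of AgRP neurons were at 78033 to 101835 and 26953 to 307007, and those of POMC neurons at 1199 to 2776 and 1880 to 5984. Those of oligodendrocytes were at 16741 to 87472 and 17487 to 97350, and the part of these cells was not tested. The fasting differences at ZT2 and ZT14 did not differ for any of the 47 by this test (adjusted p = 1 for each, limma, with none called by edgeR; 0% of all genes).

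Between methods, 10 genes differed in their fasting difference at ZT2, 1 higher in RiboTag RNA (Ssr4) and 9 lower, against 2.77% and 2.93% of the 16132 genes tested. Besides Arcn1, Srpr (-1.82), Rpn1 (-1.63) and Surf4 (-1.47) had the smallest adjusted p-values among the 9. These genes rose in sorted cells and were not called in RiboTag RNA. At ZT14 none was called (smallest adjusted p = 0.105, Sec24d, limma), against 0.62% and 0.353% of all genes. At an unadjusted p under 0.05 there were 9 of the 47, against 13.2% of all genes.

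Without any fast, RiboTag RNA and sorted cells differed in many of these genes. Method and mouse line cannot be told apart, here or in the fasting differences between methods above. At ZT2 16 were higher and 9 lower in fed RiboTag RNA, against 27.1% and 13.4% of all genes, whose median difference was 0.30. At ZT14 9 were higher and 7 lower, against 24.5% and 10.5%, with a median of 0.35 over all genes. The correction for GC content and transcript length turned this split, to 3 higher and 14 lower at ZT2 and to 3 and 20 at ZT14. Over the 15926 genes then tested, the correction gave 1992 higher and 4150 lower at ZT2 and 1722 and 4372 at ZT14. It moved the median over all genes to -0.34 and -0.47 and that over the 47 from 0.05 to -0.30 at ZT2 and from -0.27 to -0.59 at ZT14. Tmed9 was at 1992, 1555 and 808.9 in fed RiboTag RNA at ZT2, above all fed sorted libraries of ZT2. Its difference was 2.71 ± 0.405 (adjusted p = 2.61e-06, limma). In fed RiboTag RNA at ZT14 it was at 1622, 1942, 2189 and 1775 (2.72 ± 0.438, adjusted p = 1.19e-05, limma). The KDEL receptor Kdelr1, at 654.2, 714.6 and 615.8 at ZT2 and 932.2, 817.7, 768.7 and 856.6 at ZT14, was higher by 1.38 and 1.62. The signal peptidase subunit Sec11a was lower, with a difference of -1.34 at ZT2, where it was at 886.3, 1230 and 1254, and of -1.30 at ZT14. Tmed9, Kdelr1 and Sec11a kept their calls at both times in all settings, as did Ssr4 (-1.49) at ZT2 and Copb1 (-1.02) at ZT14. Several others changed sign after the correction for GC content and transcript length, among them Rpn2, which went from 1.07 to -0.06, and Surf4, from 0.76 to -0.66. Kdelr3, with differences of 4.33 and 4.20, was near 0 in sorted cells, so its size depends on the added count. In the same contrast at ZT2 all 7 oligodendrocyte, all 7 microglial and all 7 endothelial markers and 8 of 9 astrocyte markers were higher in RiboTag RNA, and Npy and Agrp were lower. Summed oligodendrocyte markers were at 14391 to 175459 in fed RiboTag libraries and 1096 to 1446 in fed sorted ones. Their part in the differences between methods was not tested.

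Across all 80 libraries the members were compared with the division into 30 and 50 libraries, by how many libraries of 1 side lay outside the range of the other. Tmed2 was at 562.1 to 2399 (median 1456) in the fasted and ZT5 libraries and at 60.11 to 879.7 (median 236.9) in the others, and 26 of the 30 were above all of the 50 and 49 of the 50 below all of the 30. Kdelr2 was at 211.7 to 1234 (median 438.6) in the 30 and 526.9 to 2149 (median 799.6) in the 50, with 22 of the 30 below all of the 50, but 1 of the 50 above all of the 30. By the first count Sec62 followed, with 10 of the 30 above all of the 50, then Tmed9 and Spcs2 with 8 each above and Ssr1, Sec24a and Copa with 8 each below. The opposite count gave another order: 42 of the 50 were above all of the 30 for Srp72, 37 for Sec24a and 33 for Ssr1.

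The ZT5 libraries, whose labels state no fast, lay with the fasted libraries for Tmed2 and mostly so for Kdelr2. For Kdelr2 the ZT5 knockouts had a mean of 401.8, and the highest, at 572.8, lay inside the range of the 50 libraries (526.9 to 2149). Tmed2 was at 1484 and 1500 in ZT5 controls and 1338, 2160 and 1853 in ZT5 knockouts, and at 216.4, 223.6, 149 and 220.9 in PBS-injected controls at ZT2. The difference between the control groups was 2.89 ± 0.490 (adjusted p = 1e-05, limma). ZT5 control replicate 1 had a level of Hsd11b2 like that of knockouts, as given below, so its label is in doubt. Without it a lone ZT5 control library remains for this contrast. Kdelr2 was at 236.4 and 219 in ZT5 controls and 744.6, 763, 670.5 and 655.2 in PBS-injected controls, a difference of -1.63 ± 0.323 (adjusted p = 0.000146). In this contrast, which joins time with whatever else differed between the experiments, 4 genes were higher and 7 lower, against 5.48% and 12.1% of all genes. The other 3 called higher were Srp9 (1.32), Spcs2 (1.00) and Ssr2 (1.22), and Sec24d (-3.23), Ssr1 (-1.22), Sec61a1 (-1.27), Copa (-1.35), Srp72 (-0.72) and Ssr3 (-0.85) were lower. Srp9, Tmed2 and Kdelr2 were called in all 16 settings, Ssr1 went to 0.10 after the correction for GC content and transcript length, and Sec24d lost its call without ZT5 control replicate 2, which was at 14.96. Sec24d, called higher in fasted sorted cells, was therefore lower here, while Tmed2 and Kdelr2 had the sign they had with fasting in sorted cells.

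In the knockout comparisons the targeted gene was examined first. Arntl was at 616.4, 291.2, 1125 and 1027 in PBS-injected controls at ZT2 and at 332.2, 526.3 and 245.5 in knockouts, a difference of -0.94 ± 0.394 that did not pass (adjusted p = 0.84). After leptin at ZT2 all 3 knockout libraries (435.8, 338.2 and 258.7) were below all controls (681.6, 832.2 and 1211), with a difference of -1.39 ± 0.421 (adjusted p = 1). At ZT14 Arntl was at 259.5, 422.5 and 298.3 in PBS-injected controls and 394.5, 230.1 and 223.8 in knockouts, and at ZT5 at 750.3 and 390.4 in controls and 540.5, 470.2 and 491 in knockouts, and both pairs of groups overlapped. Gene-level counts include any reads of Arntl outside the deleted part, so this check of the labels is weak. Another gene, Hsd11b2, was at 0 to 19.74 in all control libraries of the leptin experiment and 2092 to 3749 in all knockouts. At ZT5 it was at 4628 and 0 in the libraries labelled control and 3588, 4573 and 11.24 in those labelled knockout, so 1 library of each label went against that pattern.

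No gene of the set was called between knockout and control. Of the 47, 46 passed the filter here (not Kdelr3), and limma and edgeR each called none after PBS or leptin at ZT2 or ZT14 or at ZT5. Over all genes the shares called higher and lower were 0.00717% and 0.0143% after PBS at ZT2, 0.00717% and 0% after PBS at ZT14, 0.00717% and 0% after leptin at ZT2, 0.0143% and 0.00717% after leptin at ZT14, and 0% and 0% at ZT5. At an unadjusted p under 0.05 there were 1 gene after PBS at ZT2, 2 after PBS at ZT14, 0 after leptin at ZT2, 4 after leptin at ZT14 and 4 at ZT5. The shares of all genes at that p were 5.39%, 7.6%, 1.95%, 4.72% and 8.94% in the same order. After PBS at ZT14 Tmed2 was at 160.7, 469.7 and 480.4 in controls and at 87.75, 60.11 and 163.7 in knockouts. The difference was -1.79 (approximate 95% interval -2.68 to -0.89, adjusted p = 0.182 with limma), with 2 of 3 knockout libraries below all controls. The intervals given here use the normal distribution and are narrower than limma's t distribution would give with few libraries. Kdelr1 was at 212.8, 221.4 and 315.9 in controls and 333.4, 471.6 and 383.3 in knockouts, without overlap (0.67, adjusted p = 0.506). After leptin at ZT14 the signal peptidase subunit Spcs3 had the smallest adjusted p, with a difference of 0.67 (adjusted p = 0.646). At ZT5 Tmed9 had a difference of -0.93 (adjusted p = 0.511, limma). Sec24d was at 163.9 and 14.96 in the libraries labelled control and 339.8, 458.8 and 205.2 in those labelled knockout. Its difference was 2.63 (approximate 95% interval 0.97 to 4.30, too narrow for so few libraries, adjusted p = 0.523 with limma). Control replicate 1 (Sec24d at 163.9) and knockout replicate 3 (205.2) went against the Hsd11b2 pattern given above. Grouped by Hsd11b2, Sec24d was at 14.96 and 205.2 in control-like libraries and 163.9, 339.8 and 458.8 in knockout-like ones, which overlapped. Without ZT5 control replicate 1 a lone control library remains, so that fit is not read. The genes with an E-box in the window, Sec62, Ssr1, Sar1a and Tmed10, were not called in any knockout comparison. Since none of the 46 genes was called, nothing about the E-box follows from this.

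**Figure D5:**
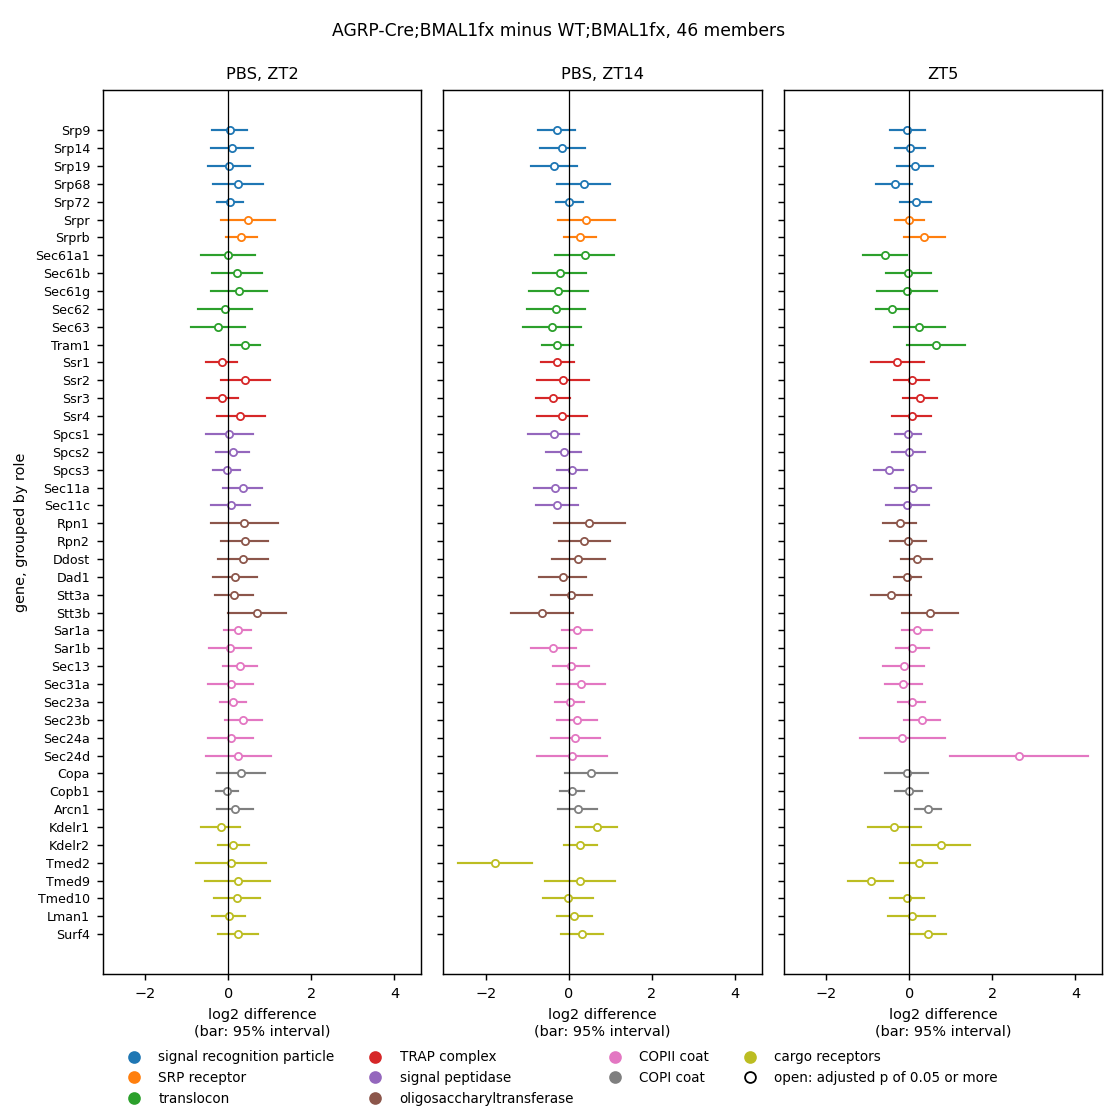
Log2 difference between knockouts and floxed controls for 46 genes after PBS at ZT2 (3 against 4 libraries), after PBS at ZT14 (3 against 3) and at ZT5 (3 against 2). Bars show an approximate 95% interval by the normal distribution, narrower than limma's t distribution would give, most of all at ZT5. All points are open because none had an adjusted p under 0.05. Tmed2 after PBS at ZT14 (-1.79) and Sec24d at ZT5 (2.63) lie far from 0. By Hsd11b2 a library of each ZT5 label is in doubt.

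Leptin against PBS likewise called none of the 46 genes in controls or knockouts at either time with limma or edgeR. Over all genes the shares called higher and lower were 0.0215% and 0% in controls at ZT2, 0% and 0% in controls at ZT14, 0.287% and 0.136% in knockouts at ZT2, and 0.0861% and 0% in knockouts at ZT14. In controls no gene reached an unadjusted p under 0.05 at ZT2 or ZT14, against 2.14% and 2.75% of all genes. In knockouts 3 did at ZT2 and 2 at ZT14, against 8.66% and 5.25% of all genes. Tram1 had the smallest adjusted p in knockouts at both times. Tram1 was at 2211, 3024 and 2219 after PBS and 1397, 1864 and 1797 after leptin at ZT2, a difference of -0.55 (adjusted p = 0.266). At ZT14 it was at 1581, 1210 and 1822 after PBS and at 2665, 2286 and 2704 after leptin, a difference of 0.75 (adjusted p = 0.217). The groups did not overlap at either time and lay in opposite order. In this experiment the largest SE among the 46 genes was between 0.428 and 0.457 across comparisons and the median SE between 0.26 and 0.278.

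Time of day called none of the genes within any feeding state or genotype. Between ZT14 and ZT2 the smallest adjusted p-values were 0.253 (Srp9, fasted sorted cells), 0.407 (Srp9, refed sorted cells), 0.531 (Ssr4, fasted RiboTag RNA) and 0.794 (Tram1, knockouts after PBS), with limma, and edgeR called none. At an unadjusted p under 0.05 there were 1, 3 and 7 genes in fed, fasted and refed sorted cells, 0 and 8 in fed and fasted RiboTag RNA, and 0 and 3 in controls and knockouts after PBS. The shares of all genes at that p were 2.77%, 9.87% and 7.62% in sorted cells and 0.596% and 8.94% in RiboTag RNA. After PBS that share was 4.96% in controls and 4.96% in knockouts. Over all genes the shares called higher and lower at ZT14 were 0% and 0% in fed, 0.228% and 0.0536% in fasted and 0.0201% and 0.0067% in refed sorted cells. They were 0% in each direction in RiboTag RNA, 0% and 0.00717% in controls after PBS, and 0% in each direction in knockouts. In refed sorted cells 3 of the 47 genes had a ZT14 minus ZT2 difference above 0, and the median was -0.34 against 0.03 over all genes. Without refed replicate 4 at ZT2 that median was -0.19.

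Variation between libraries of a group was compared among genes of the same role and of different roles. In the 33 sorted libraries, after removal of group means, the median Pearson's r was 0.30 over 109 pairs of the same role and 0.27 over 926 pairs of different roles, in the 17 RiboTag libraries 0.15 and 0.12, and in the 25 libraries of the leptin experiment 0.30 and 0.16. These pairs share libraries and their depth, and the values are descriptive. The closest pair in sorted cells was Srp19 and Dad1 (r = 0.97), of different roles, and the farthest Sec62 and Sec31a (r = -0.79).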

How the data were processed

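The authors deposited 1 table of normalised counts, a signal in which each library's reads per gene appear scaled by 1 factor. The tools named, per the submitters' processing notes and with no role or order, are STAR 2.5.1, Subread with featureCounts, R 3.5.1, DESeq2 and DESeq, and the build is mm10, and per the labels' protocols SMART-seq v4 and Nextera XT made the libraries. Read length, strand setting and the handling of reads that map to several places are not given in the sources used here. Of the 47 genes 17 share exon bases with another annotated gene (Copa with an antisense gene and Ncstn, Kdelr3 with Ddx17), and such reads cannot be assigned without strand.

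Values were taken as log2 of the value plus 1, genes were kept that reached 10 in at least the number of libraries of the fit's smallest group, and groups were compared with limma 3.58.1 (trend, Benjamini-Hochberg over all genes tested, R 4.3.3, threshold 0.05). Sorted, RiboTag, leptin and ZT5 libraries were fitted apart, with joint fits for the contrasts between methods (41 libraries) and between experiments (80 libraries). In all 29 comparisons were planned and 5 were added after the data were seen (refed minus fed between times, RiboTag fasting between times, PBS-injected against fed libraries at both times, ZT5 against PBS). Whole reads were recovered from the steps of low values in 79 libraries (at least 99.99% of values whole within 0.1), for an edgeR 4.0.16 quasi-likelihood test with TMM; fed sorted replicate 4 at ZT2 (47.23% whole) was left out of that test. Because all values share 1 table of size-factor scaling, libraries were compared across experiments as deposited. No replicate pair differed by as little as sampling noise (138 pairs, lowest chi-square per degree of freedom 15.1).

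Symbols were matched to GENCODE M21 for length and GC content (20929 of 23337 directly, 1944 through another symbol, 464 not). Alternatives were an added count of 10, no filter, the compared groups only, library weights, TMM rescaling, edgeR, a loess correction (span 0.3) for GC content and transcript length, replicate number as a block, and each library left out. The scripts were tested on simulated data. Tables were made with Python 3.11.15, numpy 2.4.6, pandas 2.3.3 and matplotlib 3.10.9. The genes, lists and comparisons were chosen with earlier results of these data known. Test values may be given by rule for each of the 47 genes with an adjusted p under 0.05 and, where none of a role passed, for its gene with the smallest p, and the 3 smallest p-values past the threshold name other pathway genes; uncalled subunits set beside called ones, and Tmed2 and Kdelr2 wherever given uncalled, were named after their values were seen.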

Additional observations from a re-analysis of the deposited data

Results flagged for a closer look

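For 12 genes each group of 4 to 10 libraries was searched for a highest or lowest library far from the rest by Dixon's test, which chance meets in about 1 in 20 groups; 7 of 108 tests did so. Tmed2 in fasted RiboTag replicate 2 at ZT2 was at 1503, and in PBS-injected control replicate 3 at ZT2 at 149. Kdelr2 in fasted sorted replicate 7 at ZT14 was at 800.6, and in refed sorted replicate 4 at ZT2 at 2149. Fasted sorted replicate 7 at ZT14 was also high for Rpn1, at 9539, and for Surf4, at 5486. Ssr1 in refed sorted replicate 4 at ZT14 was low for its group, at 11886.

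The fasting difference at ZT2 differed between RiboTag RNA and sorted cells for 10 genes by the test of that difference (limma, adjusted p under 0.05 over 16132 genes). It was lower in RiboTag RNA for Arcn1 (-1.99), Stt3b (-1.85), Srpr (-1.82), Rpn1 (-1.63), Surf4 (-1.47), Tmed2 (-1.38), Tram1 (-1.16), Rpn2 (-1.11) and Copb1 (-0.96). It was higher for Ssr4 (1.79), whose fasted RiboTag replicates 3 and 5 were at 18542 and 17293. Without these 2 libraries 3 genes were lower and none higher.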

How the results depend on the processing

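Counts of called genes are given as higher or lower in the comparison named. Counts over all genes moved with the setting as well, and those below are given without their shares. For RiboTag fasting at ZT2 all genes went from 630 higher and 589 lower to 1009 and 458 with edgeR, of 15444 tested. Refed minus fasted at ZT2 went from 1609 and 1653 of 14931 to 1869 and 1254 of 14741 with the GC and length correction. After the correction for GC content and transcript length, the 4 genes called lower with fasting in sorted cells at ZT2 became 2 (2 with the replicate block as well), and Ssr1 reversed to 0.09 (0.14 with the block). With the same correction the 11 called higher in refed minus fasted cells at ZT2 became 17, while the 2 called lower became 1 without a filter, with the compared groups only and with TMM. RiboTag fasting at ZT2 had 5 higher, which became 2 with the compared groups only, 9 with library weights and 11 with edgeR, and 0 lower, which became 4 with weights and 1 with the correction. Fasting in sorted cells at ZT14 had 10 higher, which became 18 with weights, 5 with the correction and 4 with correction and block, and 2 lower, which became 1 without a filter, with the compared groups only and with the correction, and 5 with weights. Library weights also raised refed minus fasted at ZT14 from 3 to 10 lower, RiboTag fasting at ZT14 from 0 to 2 lower, time in fasted sorted cells from 0 to 1 higher, the method difference of fasting at ZT14 from 0 to 5 lower, leptin in knockouts at ZT2 from 0 to 2 lower and knockout against control after leptin at ZT14 from 0 to 5 higher. Refed minus fed at ZT14 went from 0 to 1 higher with weights and with the compared groups only.

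Between methods in fed mice at ZT2 the 16 higher became 3 with the correction (3 with the block), and the 9 lower became 19 with the compared groups only, 19 with weights, 14 with the correction and 15 with correction and block. Reversed were Srp68 (-0.28, with the block -0.34), Surf4 (-0.66, -0.81), Rpn2 (-0.06, -0.19), Ddost (-0.33, -0.47), Sec31a (-0.13, -0.09) and Srprb (-0.40, -0.46). At ZT14 the 9 higher became 14 with the compared groups only, 15 with weights, 5 with TMM, 5 with edgeR, 3 with the correction and 2 with correction and block, and the 7 lower became 21, 20, 12, 12, 20 and 19 in that order. Reversed were Srp68 (-0.41, -0.42), Rpn2 (-0.58, -0.54) and Rpn1 (-0.16, -0.09). The median over all genes, 0.30 at ZT2 and 0.35 at ZT14, became 0.20 with TMM at both times and -0.34 and -0.47 with the correction. For the fasting difference between methods at ZT2 the 1 higher became 0 (no filter, compared groups only, replicate block, without fed replicate 4, without the 2 RiboTag libraries), 3 (weights), 2 (TMM), 6 (edgeR) or 2 (correction, with and without block), and the 9 lower became 5 (no filter), 2 (compared groups only), 4 (block), 2 (correction), 1 (correction and block), 5 (without fed replicate 4) or 3 (without the 2 RiboTag libraries).

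PBS-injected against fed libraries at ZT2 had 11 higher, which became 17 with weights, 7 with the replicate block, 6 with correction and block and 6 without fed replicate 4 and ZT5 control replicate 1, and 0 lower, which became 1 with the compared groups only and 2 with weights. ZT5 against PBS had 4 higher, which became 11 with the compared groups only and 2 without those 2 libraries, and 7 lower, which became 11 with the compared groups only, 2 with the correction (2 with the block) and 2 without those libraries; Ssr1 reversed to 0.10 (0.00 with the block). Without ZT5 control replicate 1, knockout against control at ZT5 rests on a lone control library, and its count is not read. Same-numbered libraries did not deviate together (median r = 0.00 in sorted cells, lowest pair -0.44), so the numbers were not taken to pair libraries.

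Leaving out each library gave the following ranges of counts: refed minus fasted at ZT2 6 to 12 higher and 1 to 3 lower; refed minus fed at ZT2 13 to 29 higher; RiboTag fasting at ZT2 1 to 11 higher and 0 to 1 lower; fasting at ZT14 3 to 13 higher and 1 to 2 lower; refed minus fasted at ZT14 2 to 4 higher and 2 to 6 lower; methods at ZT2 10 to 16 higher and 2 to 9 lower, at ZT14 5 to 8 and 3 to 8; their fasting difference at ZT2 0 to 6 higher and 2 to 11 lower; knockout at ZT5 0 to 1 higher; PBS-injected against fed at ZT2 2 to 13 higher; ZT5 against PBS 2 to 4 higher and 1 to 6 lower. The ZT5 ranges include fits with a lone ZT5 control library. The cause of each change was not tested.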

Other observations

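Other genes of the pathway, 114 in the table and 111 tested in sorted cells, were taken from a list drawn up with earlier results known. With fasting at ZT2 43 were higher and 12 lower (median log2 difference 0.33), where 18.3% of all genes were called higher and 19.2% lower. Asna1, the ATPase that delivers tail-anchored proteins to the ER, rose by 1.95 ± 0.204 (adjusted p = 4.5e-09), and Arf5, a GTPase of the ARF family that recruits COPI, by 2.90 ± 0.31 (adjusted p = 7.08e-09). Of 18 further cargo receptor genes 10 were higher and 1 lower, of 25 SNAREs and tethers 10 and 2, and of 28 genes of N-glycan assembly and trimming 7 and 5, to be read against the same shares. At ZT14 15 were higher and 5 lower, against 9.66% and 8.81% of all genes, with Arf5 (2.94), Asna1 (1.92) and the p24 family gene Tmed7 (1.98) at the smallest p-values. In RiboTag RNA 7 were higher and 4 lower at ZT2 and 5 and 2 at ZT14, near the shares of all genes (4.08% and 3.81% at ZT2, 4.15% and 1.14% at ZT14), with Tmed7 at 2.72 and 3.54, Asna1 at 2.18 and 2.24, and Mogs, the glucosidase that starts trimming of N-linked glycans, at 3.55 and 3.06.

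Refed minus fed at ZT2 had 26 of these 111 genes higher and 3 lower (median 0.34), against 9.01% and 8.72% of all genes, among them the COPI subunit Copb2 (0.99), the cargo receptor Cnih4 (1.83) and the Golgi stacking protein Gorasp2 (1.17). At ZT14 none was called. Refed minus fasted at ZT2 had 11 higher and 13 lower, close to the 10.8% and 11.1% of all genes, with Arf5 at -3.22, and no gene of the list was called for leptin or knockout.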
